A study of Homo sapiens with 8 samples.

Results

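The genes described here are 9 genes of the major histocompatibility complex (MHC) class I pathway: the heavy chains HLA-B, HLA-C, HLA-E and HLA-F, the light chain B2M, the peptide transporter subunits TAP1 and TAP2, the loading chaperone TAPBP (tapasin) and the aminopeptidase ERAP1. They were taken by gene name from a table of 16383 genes, in which all 9 were listed and all 9 passed the filter on low counts. The RNA came from MDA-MB-231, a human triple-negative breast cancer line of mesenchymal character. Cells had received 5 µM c-di-GMP, a signalling nucleotide of bacteria for which human STING is a sensor, or its vehicle, PBS, and both groups were kept for 24 h in medium with 10% fetal bovine serum. Each group had 4 libraries of total RNA, and the labels do not say whether these came from separate cultures, so p-values measure the spread between libraries. The title of the study concerns metastasis and an action of c-di-GMP through the proteasome subunit PSMD3 rather than through STING.

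A class I molecule is a heavy chain that spans the membrane, paired with the soluble light chain B2M, and it carries a short peptide to the cell surface. Proteasomes cut the peptides from proteins of the cytosol, the TAP1-TAP2 transporter moves them into the endoplasmic reticulum, ERAP1 trims their amino ends, and tapasin holds an empty class I molecule beside the transporter until a peptide binds well. HLA-B and HLA-C are classical molecules that present peptides to CD8 T cells, while HLA-E and HLA-F are non-classical, and HLA-E is best known as a ligand of the NKG2A receptor of natural killer cells. Interferons and NF-kappaB raise transcription of most of these genes, and low class I is one known way for tumours to escape T cells.

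Library totals ranged over 16151360 to 18040010 counts. A gene with 3 counts was therefore at 0.166 to 0.186 CPM (counts scaled to a common library total), a limit that covers counting error only. Vehicle replicate 3 was unlike the remaining 7 libraries: 43.3% of the tested genes were at least 2-fold lower in it than in the mean of the other vehicle libraries, and 13.0% were at least 2-fold higher. The common coefficient of variation between libraries was 36.3% with it and 4.52% without it. Fold changes and ratios of the 9 genes are therefore given for all 8 libraries and for the 7 without it, and the FPKM levels, the GC-corrected values and the pathway genes for the 7 only. The line's markers VIM, CD44, AXL and ZEB1 were present in every library, with summed levels of 2852 to 2902 CPM with c-di-GMP and 2443 to 2907 CPM with vehicle. They moved apart in vehicle replicate 3, which had 275 CPM of AXL (1129 to 1321 CPM in the other 7 libraries), 19.0 CPM of ZEB1 (68.2 to 80.8 CPM) and 1458 CPM of VIM (638 to 813 CPM). EPCAM, an epithelial marker low in the line, had 39.0 CPM in it and 11.7 to 15.9 CPM in the other 7 libraries. Of 8 leukocyte markers 3 were listed in the count table (CD14, LYZ and CSF1R), summing to 13.6 to 17.3 CPM with c-di-GMP and 16.9 to 21.9 CPM with vehicle, and PTPRC, which defines leukocytes, was not among the genes listed.

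The promoters of HLA-B, HLA-C and B2M are shown first, because these are the classical heavy chains and the light chain that pairs with them, and because class I promoters share a set of short elements through which the genes are regulated together. The sequences are from RefSeq on GRCh38.p14, read 5′ to 3′ on the gene's strand from 250 to 40 bases before the start site. Searched on both strands in the 250 bases before each start were GGG and TTCCC spaced by any 2 bases (a kappaB form), GAAA and GAAA spaced by any 1 or any 2 bases (interferon response forms, bound by IRF factors), TGACG (the core bound by CREB and ATF factors) and CCAAT (bound by NF-Y). Capitals mark the matches, and ATTGG is CCAAT on the other strand.
HLA-B, chr6:31357219-31357429, minus strand: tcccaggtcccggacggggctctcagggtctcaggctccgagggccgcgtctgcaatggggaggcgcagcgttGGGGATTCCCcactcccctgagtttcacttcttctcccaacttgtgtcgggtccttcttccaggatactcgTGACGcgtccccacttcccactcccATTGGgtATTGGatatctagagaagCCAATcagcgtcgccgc
HLA-C, chr6:31272132-31272342, minus strand: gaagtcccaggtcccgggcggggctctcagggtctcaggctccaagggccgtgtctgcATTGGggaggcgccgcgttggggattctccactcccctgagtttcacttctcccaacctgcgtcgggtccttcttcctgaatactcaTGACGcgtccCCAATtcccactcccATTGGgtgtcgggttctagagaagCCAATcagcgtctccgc
B2M, chr15:44711267-44711477, plus strand: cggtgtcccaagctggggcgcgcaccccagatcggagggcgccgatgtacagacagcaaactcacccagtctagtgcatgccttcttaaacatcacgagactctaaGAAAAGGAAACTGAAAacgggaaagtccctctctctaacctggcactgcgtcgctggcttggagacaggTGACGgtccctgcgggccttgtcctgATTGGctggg

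The HLA-B and HLA-C promoters were 89.0% identical over the aligned 250 bases, against 79.8% for HLA-B and HLA-F and 78.2% for HLA-C and HLA-F. HLA-B held the kappaB form at -177 to -168 from the start site, and HLA-C had no match to it in its 250 bases. The other match to it among the genes searched, which did not include HLA-E, was in ERAP1. It lay at -73 to -64 from the start at which that gene had no interferon response form. TGACG was found once each in HLA-B, HLA-C, B2M and TAP2. Among all 35116 RefSeq promoters of this length, the kappaB form was present in 1.97%, the interferon response form with 1 base of spacing in 2.69% and that with 2 bases in 3.02%, TGACG in 21.2% and CCAAT in 32.0%. One or the other interferon response form, which 5.48% of promoters had, was found in B2M, HLA-F, TAP2 and TAPBP and at 1 of the 2 starts listed for each of TAP1 and ERAP1. The windows of 30 bases around those matches in HLA-F and in the transporter and tapasin genes follow, in the same orientation as above, with the matches in capitals (TTTC runs are the form on the other strand).
HLA-F, chr6:29723268-29723297, plus strand: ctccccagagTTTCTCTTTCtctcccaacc
TAP1, chr6:32853816-32853845, minus strand: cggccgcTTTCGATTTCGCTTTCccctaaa
TAP2, chr6:32838778-32838807, minus strand: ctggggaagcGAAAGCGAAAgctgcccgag
TAPBP, chr6:33314079-33314108, minus strand: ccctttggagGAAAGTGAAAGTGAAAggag

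TAP1, TAPBP and B2M each held the form with 2 bases of spacing as a pair of overlapping matches, while TAP2 and HLA-F held it once. A match describes the letters only, and a promoter without one says nothing about whether a factor acts there. The sequence source had entries for 8 of the 9 genes, all but HLA-E, whose promoter was therefore not searched.

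FPKM are per length of gene, and these followed the length over all annotated exons rather than that of 1 transcript. That length is 6079 bases for B2M and 3051 for HLA-B, beside longest transcripts of 2403 and 1547 bases. The order between genes therefore depends on the length used. By CPM B2M was above HLA-B, with means of 648 and 498 CPM with c-di-GMP. By FPKM HLA-B ranked first of the 9. Its mean over the 7 libraries without vehicle replicate 3 was 152 FPKM (range 147 to 161). HLA-E followed at 123 FPKM (116 to 135), then B2M at 95.04 FPKM (82.1 to 104) and TAPBP at 80.6 FPKM (73.1 to 96.4). HLA-C had 40.7 FPKM (39.3 to 43.7), TAP1 21.1 FPKM (19.4 to 23.6), TAP2 14.8 FPKM (12.5 to 15.9) and ERAP1 11.2 FPKM (10.2 to 11.9). HLA-F was lowest at 1.64 FPKM (1.40 to 1.99). Among neighbours in this order, only the ranges of B2M and TAPBP overlapped. Of the summed FPKM of the 4 heavy chains, HLA-B made up 48.2 to 49.8% with c-di-GMP and 46.4 to 46.7% in vehicle replicates 1, 2 and 4. HLA-E made up 36.7 to 38.2% with c-di-GMP and 40.2 to 40.9% in those vehicle libraries, so that for both genes the shares of the groups did not overlap in these 7 libraries. Vehicle replicate 3 lay on the far side of the treated libraries, with 68.6% HLA-B and 11.8% HLA-E, so that over all 8 libraries they did. HLA-C and HLA-F shares overlapped between the groups. For HLA-C they were 12.6 to 13.9% with c-di-GMP, 11.8 to 12.9% in vehicle replicates 1, 2 and 4 and 19.1% in vehicle replicate 3.

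**Figure D1:**
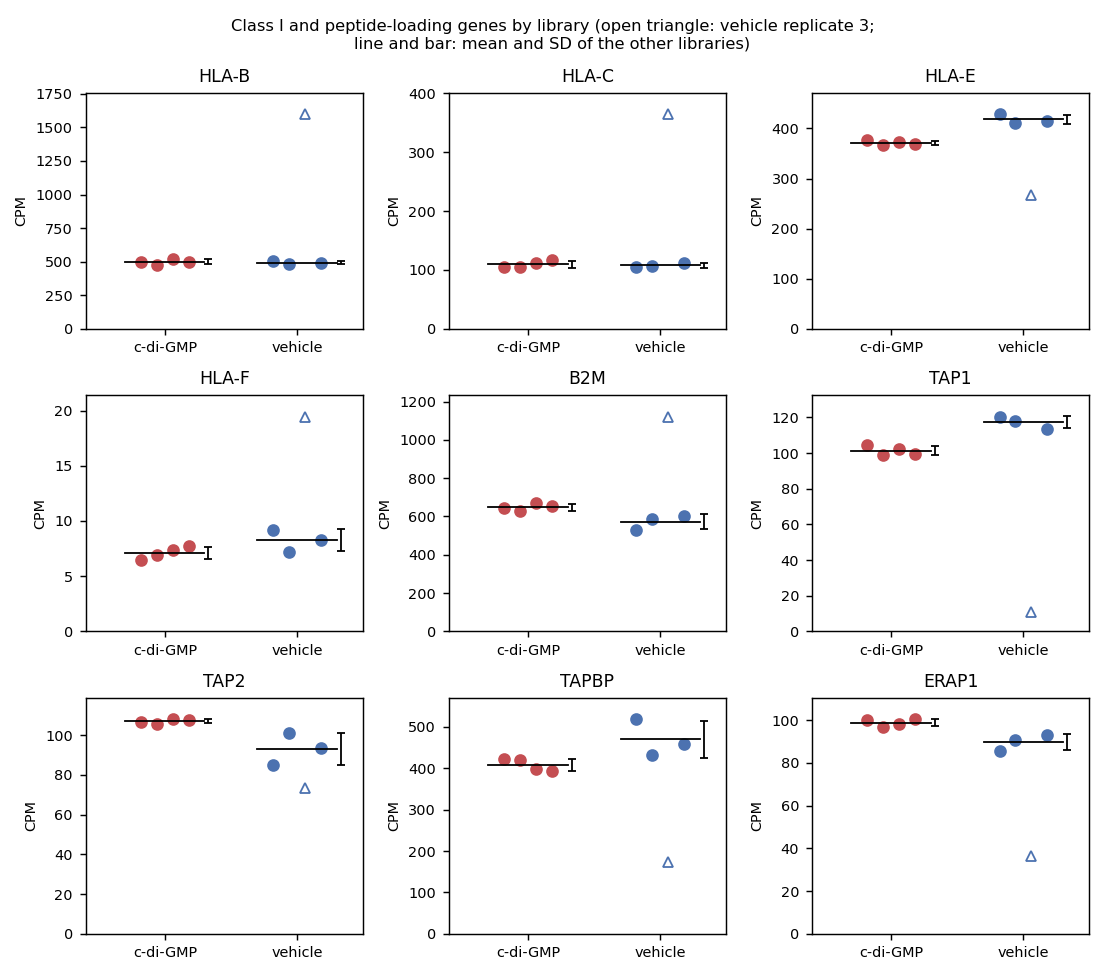
Level of each of the 9 genes in CPM by library, c-di-GMP at the left and vehicle at the right of each panel; the horizontal line and the bar beside it are the mean and SD without vehicle replicate 3, which is the open triangle. HLA-E, TAP1 and TAPBP were lower in all 4 c-di-GMP libraries than in vehicle replicates 1, 2 and 4, and B2M, TAP2 and ERAP1 were higher, while vehicle replicate 3 lay as high as 1598 CPM for HLA-B and as low as 10.6 CPM for TAP1.

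The question put to each gene was whether its RNA differed after c-di-GMP. With all 8 libraries, the quasi-likelihood test of edgeR, adjusted by Benjamini-Hochberg, called 0 of the 9 genes at an adjusted p under 0.05, and 0% of the 15415 genes tested. At an unadjusted p under 0.05 it held 0 of the 9 and 6.23% of all genes. limma-voom called 0 genes in all. DESeq2 called 106 (0.936% of the genes for which it gave an adjusted p), and HLA-E was the 1 gene of the 9 among them (log2 fold change -0.17, DESeq2 adjusted p = 0.0414). In CPM, TAP2 and ERAP1 were higher in every c-di-GMP library than in every vehicle library. These were 2 of 9 genes without overlap in CPM, against 14.3% of all genes. By FPKM this held for ERAP1 but not for TAP2, with 16.8 FPKM in vehicle replicate 3 and 15.6 to 15.9 FPKM with c-di-GMP. Without vehicle replicate 3, edgeR called 6 of the 9 genes against 29.6% of the 15647 tested, 3 of them higher with c-di-GMP (B2M, TAP2 and ERAP1; 13.5% of all genes) and 3 lower (HLA-E, TAP1 and TAPBP; 16.2%). Those 6 were also the genes whose groups did not overlap in CPM, as was so for 35.4% of all genes. All changes were under 1.2-fold. Since these are whole-culture RNA samples, fewer cells making a transcript and less of it per cell cannot be told apart.

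HLA-B and HLA-C, the classical heavy chains, were not called in the 7 libraries before correction for GC content, and both were called higher with c-di-GMP after it (0.20 and 0.30 on the log2 scale, given in full further on). HLA-B is annotated on GRCh38 (GENCODE v29) at chr6:31269491-31357188 on the minus strand, a span that includes HLA-C at chr6:31268749-31272130 in part. HLA-B had 496, 475, 519.9 and 500.4 CPM with c-di-GMP, against 502, 483 and 491 CPM in vehicle replicates 1, 2 and 4 and 1598 CPM in vehicle replicate 3. The c-di-GMP libraries spread around the 3 vehicle libraries that resembled each other, and the remaining vehicle library lay far above all. The fold change of HLA-B over the 7 libraries was 0.01 ± 0.04 on the log2 scale (SE; approximate 95% interval -0.07 to 0.10; edgeR adjusted p = 0.835). HLA-C had 105, 105, 111 and 117 CPM with c-di-GMP, against 105, 106 and 113 CPM in vehicle replicates 1, 2 and 4 and 365 CPM in vehicle replicate 3. Its groups overlapped in the same way, with a fold change of 0.02 ± 0.05 (interval -0.07 to 0.12; edgeR adjusted p = 0.751). With vehicle replicate 3 included, the fitted values turned to -1.02 ± 0.58 for HLA-B and -1.05 ± 0.60 for HLA-C (edgeR adjusted p = 0.623 for each), so that 1 library set both.

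HLA-E was lower with c-di-GMP in the 7 libraries, a call that GC correction ended (-0.08, edgeR adjusted p = 0.0750). This gene, at chr6:30489467-30494205 on the plus strand, had 376, 367, 373 and 368 CPM with c-di-GMP, against 428, 411 and 415 CPM in vehicle replicates 1, 2 and 4 and 268 CPM in vehicle replicate 3. In CPM all 4 treated libraries lay below the first 3 vehicle values and above the last. By FPKM they lay below all 4 vehicle libraries, at 116 to 119 FPKM against 129 to 135 FPKM. Vehicle replicate 3 had 131 FPKM beside its 268 CPM, whereas vehicle replicate 1 had 135 FPKM beside 428 CPM. The FPKM of vehicle replicate 3 thus stand on another scale relative to CPM. The separation from all 4 vehicle libraries depends on that scale. Its fold change was -0.17 ± 0.04 in the 7 libraries (edgeR adjusted p = 0.00167) and -0.18 ± 0.10 in all 8 (adjusted p = 0.623), so its size hardly moved while its error grew. HLA-F, at chr6:29722775-29738528 on the plus strand, is a scarce non-classical heavy chain that is overlapped on the opposite strand by HLA-F-AS1. It had 6.44, 6.95, 7.40 and 7.69 CPM with c-di-GMP, against 9.21, 7.21 and 8.29 CPM in vehicle replicates 1, 2 and 4 and 19.4 CPM in vehicle replicate 3. Its groups overlapped, and the fold change of -0.21 ± 0.11 did not pass (edgeR adjusted p = 0.180). With vehicle replicate 3 it was -0.96 ± 0.48 (edgeR adjusted p = 0.623), over 1.5 times the fold, and again did not pass. The sources used here do not say whether counting kept the strand, so reads of HLA-F and its antisense gene may have been mixed. Heavy chain genes also share stretches of sequence: of the runs of 50 bases in the longest coding transcript, 2.54% of HLA-B, 6.71% of HLA-C, 4.66% of HLA-E and 1.51% of HLA-F occurred in transcripts of another class I gene, and values at such places are uncertain. Differences between the HLA alleles of this line and the reference genome were not examined here.

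B2M, the light chain, rose with c-di-GMP in the 7 libraries, and was not called after GC correction (0.06, edgeR adjusted p = 0.209). The gene lies apart from the heavy chains, at chr15:44711487-44718877 on the plus strand. It had 644, 626, 671 and 653 CPM with c-di-GMP, against 531, 587 and 602 CPM in vehicle replicates 1, 2 and 4 and 1121 CPM in vehicle replicate 3. Every treated library was above those 3 vehicle libraries, with a fold change of 0.18 ± 0.04 (edgeR adjusted p = 0.00326). Vehicle replicate 3 turned the fitted direction, to -0.44 ± 0.40 in all 8 libraries (adjusted p = 0.686).

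For the transporter subunits, which work as a pair, the 7 libraries called TAP1 lower and TAP2 higher with c-di-GMP. After GC correction TAP2 alone of the pair was called (TAP1 -0.07, edgeR adjusted p = 0.228), and in all 8 libraries neither was and both fitted values were positive. TAP1, at chr6:32845209-32853978 on the minus strand and overlapped on the other strand by PSMB9 and PSMB8-AS1, had 105, 99.0, 102 and 99.3 CPM with c-di-GMP, against 120.4, 118 and 114 CPM in vehicle replicates 1, 2 and 4 and 10.6 CPM in vehicle replicate 3. The treated libraries lay below those 3 vehicle libraries, and TAP1 fell by 0.21 ± 0.04 on the log2 scale (edgeR adjusted p = 0.000733). In all 8 libraries its fitted value was 0.14 ± 0.51 (adjusted p = 0.926), the opposite sign. TAP2, next to it at chr6:32821833-32838780 on the minus strand, had 107, 106, 108 and 108 CPM with c-di-GMP, against 84.7, 101 and 93.7 CPM in vehicle replicates 1, 2 and 4 and 73.6 CPM in vehicle replicate 3. All 4 treated libraries were above all 4 vehicle libraries in CPM. By FPKM vehicle replicate 3 lay above them, at 16.8 against 15.6 to 15.9 with c-di-GMP. The fold change of TAP2 was 0.20 ± 0.05 in the 7 libraries (edgeR adjusted p = 0.00351) and 0.11 ± 0.12 in all 8 (adjusted p = 0.726).

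Tapasin, which bridges the transporter and the empty class I molecule, fell in the 7 libraries, and was not called after GC correction (-0.05, edgeR adjusted p = 0.410). Its gene TAPBP lies at chr6:33299694-33314387 on the minus strand and had 423, 419, 398 and 394 CPM with c-di-GMP, against 519, 431 and 459.6 CPM in vehicle replicates 1, 2 and 4 and 173 CPM in vehicle replicate 3. The gap to the lowest of the 3 vehicle libraries was small, and the fold change was -0.20 ± 0.05 (edgeR adjusted p = 0.00416). limma on log2(FPKM + 1) gave -0.18 for TAPBP with an adjusted p of 0.0779, which does not pass. In all 8 libraries the value was -0.04 ± 0.19 (edgeR adjusted p = 0.939) and took the other sign without TMM scaling (0.05), a setting that moved the median of all genes to 0.08, against -0.05 with TMM.

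ERAP1, the peptide-trimming enzyme, was slightly higher with c-di-GMP in the 7 libraries, and was not called after GC correction (0.02, edgeR adjusted p = 0.812). The gene is at chr5:96760810-96808100 on the minus strand and is overlapped on the opposite strand by CAST and AC008906.1. It had 100.2, 97.0, 98.1 and 101 CPM with c-di-GMP, against 85.8, 91.0 and 93.2 CPM in vehicle replicates 1, 2 and 4 and 36.5 CPM in vehicle replicate 3. No vehicle library reached the treated ones, with a fold change of 0.14 ± 0.04 in the 7 libraries (edgeR adjusted p = 0.0230) and 0.27 ± 0.16 in all 8 (adjusted p = 0.623). The call in the 7 libraries was lost without vehicle replicate 1 (edgeR adjusted p = 0.0592), without c-di-GMP replicate 1 (0.0817) and without c-di-GMP replicate 4 (0.0876).

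**Figure D2:**
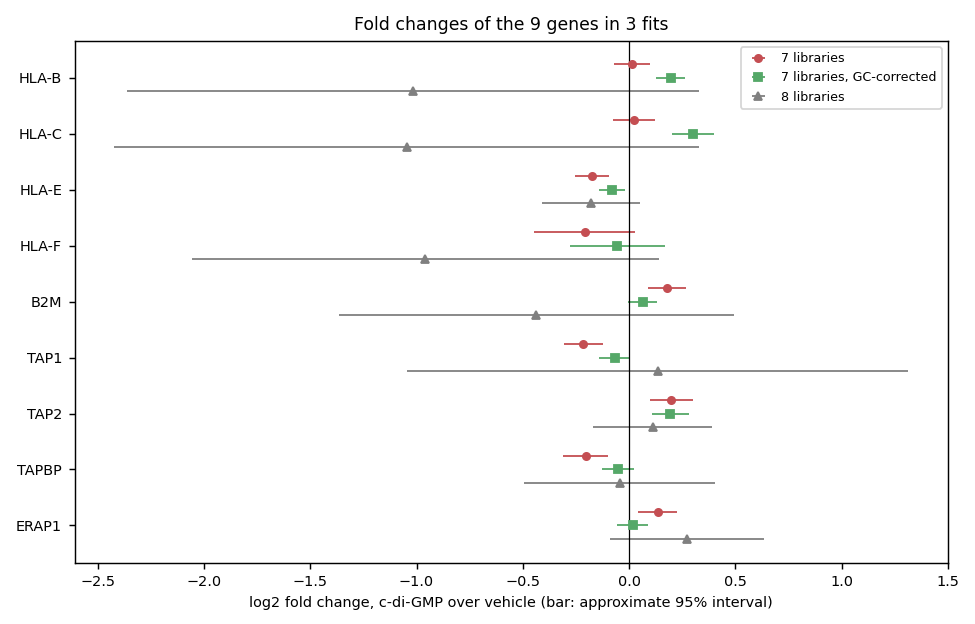
Log2 fold change of each gene, c-di-GMP over vehicle, from edgeR for the 7 libraries (circles), the 7 libraries after GC correction (squares) and all 8 libraries (triangles), with approximate 95% intervals as bars. Intervals from 8 libraries all cross 0, and TAP2 is the gene of the 9 with intervals clear of 0 and a call in both fits of the 7 libraries.

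Fold changes in the 7 libraries also went with the GC content of a gene's longest transcript, over all genes. The median log2 fold change of genes with 40 to 45% GC was 0.10, and it was -0.15 for genes with 55 to 60% and -0.28 for genes with 60 to 65%. B2M (40.6% GC) and ERAP1 (39.7%) are on the low side of this range, and HLA-E (54.8%), TAP1 (57.5%), TAPBP (57.6%) and HLA-F (57.7%) on the high side, so that the calls of B2M, ERAP1, TAP1, TAPBP and HLA-E each had the sign of the median of genes of like GC content. TAP2 (49.1%) also had the sign of that median, which was 0.03 for genes with 45 to 50% GC, but at 0.20 lay above it. HLA-B (59.0%) and HLA-C (62.7%) lay above the negative medians of genes of like GC content. When the GC trend of each library was removed, edgeR called 3 of the 9 genes, all higher with c-di-GMP, against 15.2% of all genes (8.58% higher and 6.62% lower). Without overlap between the groups after the correction were 4 of the 9 genes (HLA-B, HLA-C, HLA-E and TAP2), against 23.5% of all genes.

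HLA-B then had 520.1, 506, 542 and 531 GC-corrected CPM with c-di-GMP, against 443, 467 and 466 in vehicle replicates 1, 2 and 4. HLA-C had 112, 116, 119 and 128 GC-corrected CPM with c-di-GMP, against 87.2, 100.1 and 103 in those vehicle libraries. Both classical heavy chains were now above vehicle in every treated library, by 0.20 ± 0.03 for HLA-B (edgeR adjusted p = 0.000168) and 0.30 ± 0.05 for HLA-C (9.47e-05). TAP2 kept its value, 0.19 ± 0.04 (edgeR adjusted p = 0.00238), and was the 1 gene of the 9 called in the same direction with and without the correction, as were 9.89% of all genes. The 5 calls lost were those of HLA-E, B2M, TAP1, TAPBP and ERAP1, with the values given above and an SE of 0.03 to 0.04 each, and HLA-F stood at -0.05 ± 0.11 (edgeR adjusted p = 0.796). A correction for gene length on top of that for GC content left HLA-B, HLA-C and TAP2 called and called HLA-E as well (-0.12, edgeR adjusted p = 0.0031). The part of GC content in the uncorrected results was not tested beyond these corrections.

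**Figure D3:**
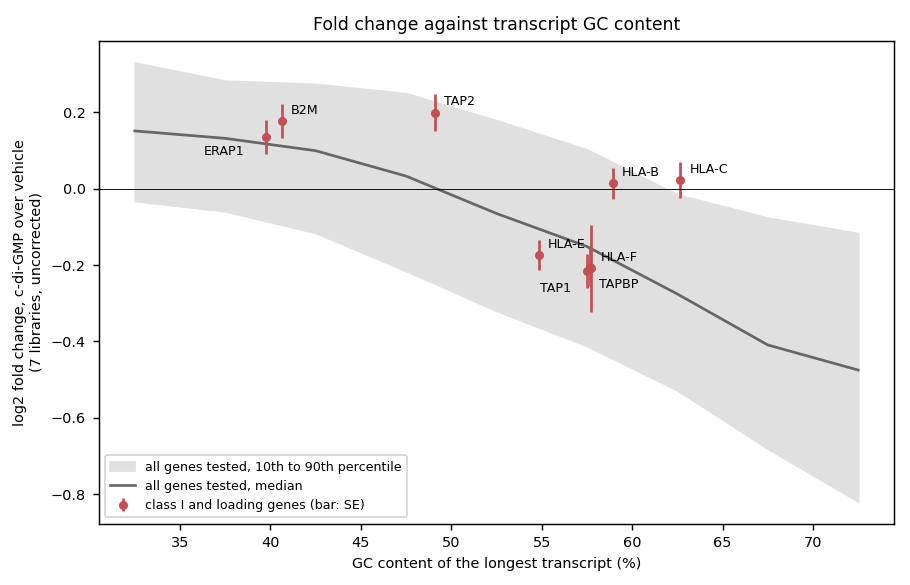
Log2 fold change, c-di-GMP over vehicle, in the 7 libraries without GC correction against the GC content of the longest transcript in percent; the line and grey band are the median and the 10th to 90th percentile of all tested genes in bins of GC content, and points are the 9 genes with SE bars. The median declines with GC content; TAP2, HLA-B and HLA-C lie above it, and the other 6 genes lie closer to it.

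Ratios between the genes within a library do not depend on its total, and 3 were computed from FPKM. Their size depends on the gene lengths used. B2M over the summed heavy chains was 0.319, 0.320, 0.323 and 0.319 with c-di-GMP, against 0.248, 0.283, 0.242 and 0.285 in vehicle replicates 1 to 4. All 4 treated libraries were above all 4 vehicle libraries, vehicle replicate 3 included. The log2 difference was 0.28 over 8 libraries (two-sided exact permutation p = 0.0286, the smallest that 4 against 4 can give; 0.0857 adjusted over the 3 ratios) and 0.24 over 7 (exact p = 0.0571, the smallest that 4 against 3 can give). By uncorrected FPKM, B2M was thus higher relative to the heavy chains in the treated libraries. The difference was larger than the spread between libraries but not past 0.05 after adjustment. The ratio combines genes of 40.6% GC with genes of 54.8 to 62.7% GC. After GC correction, log2 fold changes in the 7 libraries were 0.06 for B2M, 0.20 for HLA-B and 0.30 for HLA-C. They were -0.08 for HLA-E and -0.05 for HLA-F. HLA-B and HLA-C thus rose more than B2M after the correction. The ratio was not recomputed from GC-corrected values, and how much of it goes with GC content was not tested.

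TAP1 over TAP2 was 1.30, 1.25, 1.26 and 1.23 with c-di-GMP, against 1.89, 1.55 and 1.61 in vehicle replicates 1, 2 and 4 and 0.192 in vehicle replicate 3. The treated libraries were below 3 vehicle libraries and above the other. TAP1 has 57.5% GC and TAP2 49.1%, and how much of this ratio goes with GC content was not tested. The log2 difference was -0.42 over 7 libraries (exact permutation p = 0.0571, the smallest possible) and 0.37 over 8 (exact permutation p = 1), so vehicle replicate 3 turned its sign. HLA-B plus HLA-C over HLA-E plus HLA-F was 1.60, 1.58, 1.69 and 1.68 with c-di-GMP, against 1.41, 1.44 and 1.46 in vehicle replicates 1, 2 and 4 and 7.09 in vehicle replicate 3. This ratio of classical to non-classical heavy chains was higher in all treated libraries than in those 3, with a log2 difference of 0.19 over 7 libraries (exact permutation p = 0.0571, the smallest possible) and -0.39 over 8 (exact permutation p = 1).

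**Figure D4:**
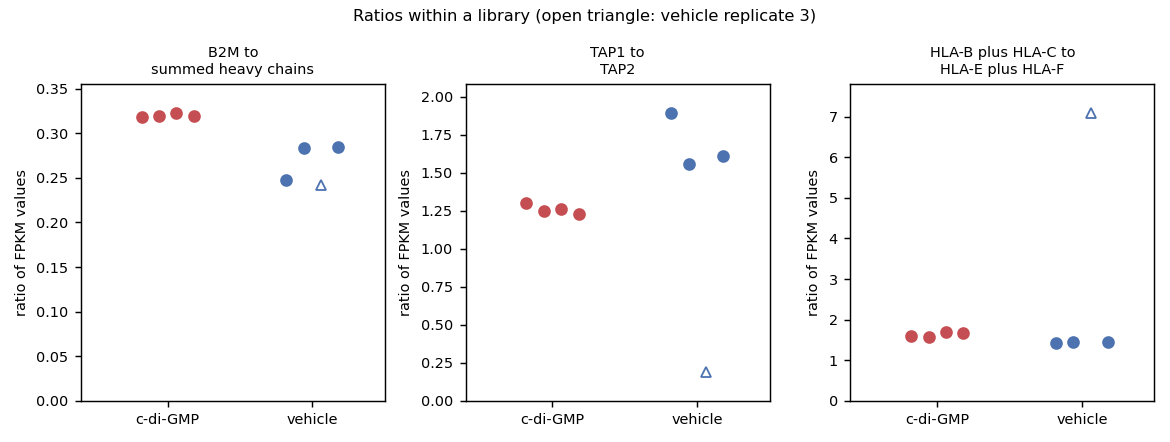
Ratios of FPKM values within each library, c-di-GMP at the left and vehicle at the right, with vehicle replicate 3 as an open triangle. B2M over the summed heavy chains lies between 0.319 and 0.323 in the 4 treated libraries, above every vehicle library, whereas for the other 2 ratios vehicle replicate 3 lies on the far side of the treated libraries at 0.192 and 7.09.

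Vehicle replicate 3 differed from the other vehicle libraries in both directions within this group of genes. The classical heavy chains were higher in it, HLA-C 3.39-fold and HLA-B 3.25-fold over the mean of the other vehicle libraries, as were HLA-F 2.37-fold and B2M 1.96-fold. By contrast TAP1 was 11.0-fold lower in it, TAPBP 2.71-fold, ERAP1 2.46-fold, HLA-E 1.56-fold and TAP2 1.26-fold lower. The median of all tested genes was -0.75 on this log2 scale, with 5th and 95th percentiles of -3.67 and 1.88, so that all 9 genes lay within that range; TAP1, at -3.46, was at percentile 5.93, and HLA-C, at 1.76, was at percentile 94.1. HLA-E, at -0.64, and TAP2, at -0.34, lay above that median, at percentiles 52.7 and 60.8. HLA-E in this library was low by CPM but not by FPKM, where it had 131 FPKM beside 129 to 135 in the other vehicle libraries. The FPKM of vehicle replicate 3 stand on another scale relative to its CPM than those of the other libraries. This is 1 library with no replicate, and no test was made.

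**Figure D5:**
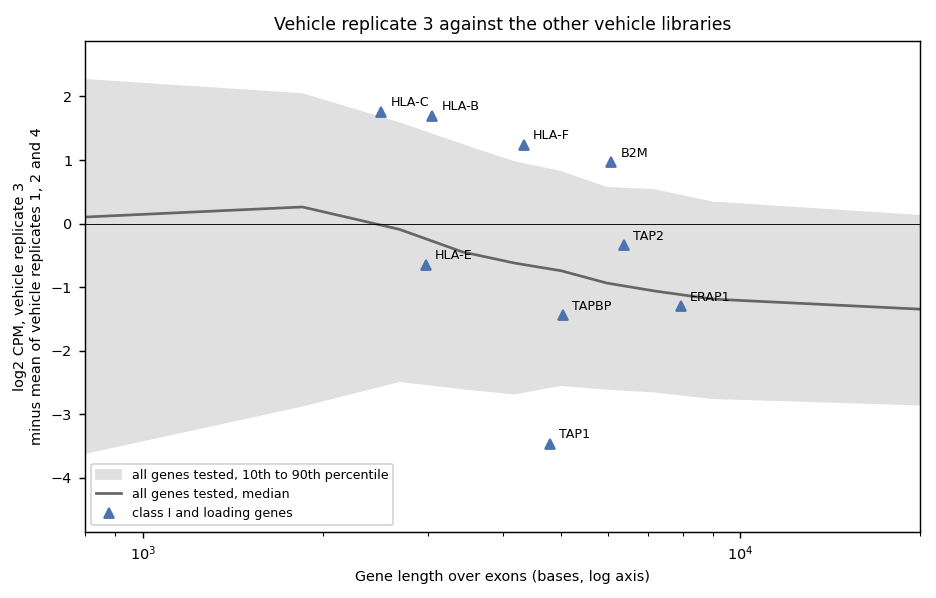
Log2 CPM of vehicle replicate 3 minus that of the mean of vehicle replicates 1, 2 and 4, against gene length over exons on a log axis; the line and grey band are the median and the 10th to 90th percentile of all tested genes in bins of length, and triangles are the 9 genes. HLA-C, HLA-B, HLA-F and B2M lie above 0, and TAP1 lies lowest at -3.46.

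Other genes of the pathway were read in lists, over the 7 libraries. The median log2 fold change of each list lay between -0.01 and 0.03, beside 0.00 for all genes tested. Over all genes, 13.5% rose and 16.2% fell before GC correction, and 8.58% rose and 6.62% fell after it. With 8 libraries edgeR called 0 genes in each. Of 14 other class I and class I-like genes 11 were tested, and with c-di-GMP 0 rose and 1 fell (1 and 0 after GC correction). The gene that fell was FCGRT, the neonatal Fc receptor, at -0.33 ± 0.07 (edgeR adjusted p = 0.00106; -0.05 after GC correction, not called).

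Among 16 peptide-trimming and loading partners, 2 rose and 2 fell. Calnexin (CANX, which folds new heavy chains) rose by 0.16 ± 0.04 and PDIA3 (the disulfide isomerase of the loading complex) by 0.17 ± 0.04, while the cytosolic peptidase THOP1 fell by 0.22 ± 0.05 and the glucosidase MOGS by 0.23 ± 0.05, with edgeR adjusted p between 0.000527 and 0.00375. None of these 4 was called after GC correction, where 1 other gene of the list rose and 1 fell: BCAP31, a chaperone of the endoplasmic reticulum membrane (0.21, edgeR adjusted p = 0.000188), and the aminopeptidase NPEPPS (-0.15, edgeR adjusted p = 0.00438), both named after their values were seen. Of 6 immunoproteasome and PA28 genes, 2 rose and 1 fell: the proteasome activator subunit PSME2 had 0.20 ± 0.05 (edgeR adjusted p = 0.00293) and the proteasome assembly factor POMP 0.28 ± 0.05 (0.000420), and the immunoproteasome subunit PSMB10 had -0.41 ± 0.09 (0.00106). PSME2 was the 1 gene of the 3 also called after GC correction (0.23, edgeR adjusted p = 0.000393).

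Of 17 regulators of class I transcription, 4 rose and 1 fell before GC correction, and 4 rose and 0 fell after it. The 4 that rose without correction included NFYA, a subunit of the CCAAT-binding factor (0.19 ± 0.04), and EZH2, a histone methyltransferase that can silence class I genes (0.29 ± 0.04), with edgeR adjusted p of 0.00211 for NFYA and 2.2e-05 for EZH2. Both were called after GC correction as well (NFYA 0.12 and EZH2 0.19). NLRC5, the transactivator of class I genes, fell by 0.28 ± 0.07 (edgeR adjusted p = 0.00284), and its GC-corrected value of -0.12 did not pass. Of 7 interferon receptor and kinase genes, 1 rose and 1 fell (0 and 0 after GC correction). The gene that fell was the kinase TYK2 (-0.32 ± 0.05, edgeR adjusted p = 2.1e-05; -0.08 after GC correction, not called). In the MHC class II list 10 of 13 genes were tested, 0 rose and 2 fell. Those were the invariant chain CD74 (-0.12 ± 0.04, edgeR adjusted p = 0.0465; 0.06 and not called after GC correction) and the class II transactivator CIITA (-0.37 ± 0.06, edgeR adjusted p = 8.5e-05), which was also called after GC correction (-0.31, edgeR adjusted p = 0.000255). After correction 1 class II gene rose and 2 fell; beside CIITA these were HLA-DMA, a subunit of the class II peptide exchanger (0.18, edgeR adjusted p = 0.0495), and the class II chain HLA-DPA1 (-0.16, edgeR adjusted p = 0.00609), both named after their values were seen.

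Likeness of pattern was measured as the root mean square difference of log2 CPM, each gene centred on its own mean, over the 7 libraries and 9836 candidate genes. Most like HLA-B were PSMB5 (0.0151), PDXDC1 (0.0165), MRPL49 (0.0177) and TIMMDC1 (0.0184). Most like B2M were KDELR2 (0.0168), ZNF131 (0.0170), NUDCD1 (0.0177) and CALM2 (0.0178). Within the 9 genes the closest pairs were HLA-E and TAP1 (0.0306), B2M and ERAP1 (0.0391), B2M and TAP2 (0.0454) and HLA-B and HLA-C (0.0559). The libraries share their depth and GC trends, and these values are a description of 7 libraries only.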

How the data were processed

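Total RNA was extracted with TRIzol and made into libraries with a NEBNext Ultra RNA kit, per the labels' protocols. Per the submitters' processing notes, the tools were featureCounts 1.5.0-p3, HISAT2 2.0.5, DESeq2 1.20.0, CASAVA 1.8 and fastp, with no role given, and the build is named as mm10, whereas the deposited tables hold human genes with GRCh38 coordinates. The authors deposited read counts per gene and FPKM per gene. Strandedness, read length and the FPKM denominator are not given in the sources used here. The count table's lowest gene total was 55 over the 8 libraries.

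Counts were tested with edgeR 4.0.16 in R 4.3.3 (filterByExpr with minimum count 10 and minimum total 15, TMM, quasi-likelihood F test, treatment as the only term, Benjamini-Hochberg over all genes, threshold 0.05). Fits used either the full set of 8 libraries or 7, leaving out vehicle replicate 3. DESeq2 1.42.0 and limma 3.58.1 served as alternatives, limma also on log2(FPKM + 1) and log2(FPKM + 0.1), scales that understate changes of low genes. The GC correction fitted, per library, deviations from the gene mean by lowess (span 0.3) on the GC content of the longest GENCODE v29 transcript, and entered the fitted trend as an offset. CPM are counts scaled to a common total of each library's listed counts. CPM given by library, other than the GC-corrected ones, leave out the TMM factor. In the 8-library fit that factor was 0.664 for vehicle replicate 3 and 1.05 to 1.07 for the others. The intervals are 95% intervals from the SE. Ratios were tested by exact permutation over libraries (scipy 1.17.1). The scripts were tested on simulated data.

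The members and lists were chosen with earlier results of these data known. Named from each list were up to 4 genes with the smallest p in the 7 libraries among those called, with a mean of at least 1 CPM and groups that did not overlap, except for an item not reported here; likeness was sought among genes of at least 10 CPM, 4 per gene. Promoters and their sequences are from RefSeq. Replicate numbers were taken as names only.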

Additional observations from a re-analysis of the deposited data

Results flagged for a closer look

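In groups of 4, a library was marked where its gap to the nearest other library took up more of the group's range than Dixon's critical value allows; chance marks about 1 in 20 groups. Of 52 groups examined, 17 were marked, and in each of the 17 the library was vehicle replicate 3. Among the 9 class I and loading genes these were HLA-B at 1598 CPM, HLA-C at 365 CPM, HLA-E at 268 CPM, HLA-F at 19.4 CPM, B2M at 1121 CPM, TAP1 at 10.6 CPM and ERAP1 at 36.5 CPM. TAP2 and TAPBP were not marked. Among the other named genes it had 253 CPM of CANX, 677 CPM of PDIA3, 34.6 CPM of MOGS, 300.3 CPM of PSME2 and 290.1 CPM of POMP. It also had 12.8 CPM of NFYA, 77.8 CPM of EZH2, 33.6 CPM of TYK2 and 212 CPM of CD74. The ratio of HLA-B plus HLA-C to HLA-E plus HLA-F was 7.09 in it. In no c-di-GMP group was a library marked.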

How the results depend on the processing

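With all 8 libraries, 0 genes and 0 of the 9 were called under the alternatives run, except by DESeq2 (106 and 1) and without single libraries (0 to 4633 genes and 0 to 6 of the 9, the upper values without vehicle replicate 3). Without vehicle replicate 3 the main counts were 4633 and 6; they were 2378 and 3 after GC correction, 2097 and 4 after GC and length correction, 0 and 0 with all 8 libraries, and 3440 to 4826 and 5 to 6 without single libraries. The replicate number as a block gave 4093 and 6 of the 9, and called 0 in all 8 libraries. Deviations from the group mean had correlations between -0.06 and 0.18 for libraries of the same number. With so few libraries, these cannot decide whether the numbers pair the libraries.

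The 8-library log2 fold changes without single libraries ranged from -1.24 to 0.014 for HLA-B, -1.28 to 0.023 for HLA-C, -0.61 to 0.18 for B2M, -0.21 to 0.30 for TAP1 and -0.20 to 0.078 for TAPBP. TAPBP in 8 libraries also became positive with limma-voom (0.0071), without TMM (0.046), with GC correction (0.084), with GC and length correction (0.079), and with limma on log2(FPKM + 1) (0.016, also with no filter) and log2(FPKM + 0.1) (0.017).

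In the 7 libraries, HLA-B ranged from -0.0077 to 0.035 and HLA-C from -0.015 to 0.048 without single libraries, and HLA-B was -0.0074 with the replicate block. Adding vehicle replicate 3 turned HLA-B (-1.02), HLA-C (-1.05), B2M (-0.44), TAP1 (0.14), PDIA3 (-0.64), PSME2 (-0.87), POMP (-0.92) and CD74 (0.089). GC correction turned THOP1 (0.068, and 0.098 with length), MOGS (0.0080) and CD74 (0.058, and 0.022 with length). Without single libraries the log2 differences of the ratios ranged from 0.24 to 0.32 for B2M over heavy chains, -0.42 to 0.68 for TAP1 over TAP2 and -0.59 to 0.19 for classical over non-classical heavy chains. The cause of these changes was not tested.

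Counting error was largest for HLA-F, which had 104 to 328 counts per library, against at least 179 for each of the other 8 genes. The number of libraries limits the tests of ratios, since 4 against 3 cannot give an exact p under 0.0571.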
